A study of Mus musculus with 3 samples.

Results

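The cells described are spleen T cells of lupus-prone MRL/lpr mice, a strain that carries a defective Fas gene, in which Ezh2 was either targeted for deletion or left intact. KO mice carried loxP-flanked Ezh2 alleles and a Cre that the Cd4 promoter drives and tamoxifen activates (CD4-Cre/ERT2 Ezh2fl/fl), and WT mice carried the floxed alleles without Cre (Ezh2fl/fl). Both genotypes were littermates on the MRL/lpr background, housed together, and all were gavaged with tamoxifen at 300 mg/kg on 3 days of every other week, from 10 or 14 weeks of age up to 24 weeks. Which mice began at which age is not given in the sources used here. CD4+ T cells were sorted by flow cytometry, marked with 1 antibody-bound barcode (hashtag) per mouse and organ, pooled, and read by single-cell sequencing from the 5′ ends of transcripts. The 5 spleen blocks of the first day of the deposited tag key were used, from 2 KO mice (KO1 and KO2) and 3 WT mice (WT1, WT2 and WT3). Cells with no UMI of Cd8a or Cd8b1 were kept, which left 8034 of 8379 spleen cells, out of 30891 entries in both deposited matrices. A UMI (unique molecular identifier) stands for 1 captured transcript.

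EZH2 is the catalytic subunit of Polycomb repressive complex 2 (PRC2), which trimethylates lysine 27 of histone H3 and keeps silent many genes of alternative cell fates. In CD4+ T cells PRC2 is known to restrain effector, regulatory and memory programmes and to bear on cell survival. Naive T cells recirculate through spleen and lymph nodes with the help of CCR7 and the sphingosine receptor S1PR1, and depend on the transcription factors TCF1 and LEF1, whereas activated cells lose these and gain effector factors such as EOMES.

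The hashtags are shown because they alone tie a cell to a mouse and a genotype. Each is given 5′ to 3′ from the deposited key, in lower case, with no part singled out.
KO1, HTO6: tatgctgccacggta
KO2, HTO7: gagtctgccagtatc
WT1, HTO8: tatagaacgccaggc
WT2, HTO9: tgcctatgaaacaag
WT3, HTO10: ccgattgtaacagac
The median cell held between 762 and 1862 UMIs of its own hashtag, against 109 to 250 UMIs of the next tag. A block's own hashtag led in at least 99.5% of its cells. No barcode of the kept cells was shared between blocks.

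KO1 contributed 1265 cells, KO2 1437, WT1 2321, WT2 905 and WT3 2106. Total depth per mouse ran from 3939088 UMIs in WT2 to 9663884 in WT1, and the median cell held 3198 to 3626 UMIs. The removed cells with a CD8 transcript made up 4.53% and 9.11% of the KO blocks and 3.37%, 1.95% and 1.96% of the WT blocks. Cd4 was seen in 58.0% and 59.8% of kept KO cells and in 60.5%, 72.3% and 71.9% of kept WT cells. For the other kept cells the CD4 identity rests on the sorting gate. Cd3e, Cd3g and Trac were high in every mouse, but they mark T cells in general and do not tell CD4+ cells from other T cells.

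WT1 stood apart from the other WT mice. Foxp3, which defines regulatory T cells, was seen in 17.9% of WT1 cells, in 0.773% of WT2 and in 3.13% of WT3 cells, beside 13.2% of KO1 and 23.5% of KO2 cells. The plasma cell gene Jchain stood at 163 CPM (UMI counts scaled to a common library total) in WT1 against 9.90 and 9.42 CPM in WT2 and WT3 and 11.7 and 15.0 CPM in the KO mice. The neutrophil gene S100a8 was at 48.1, 169 and 117 CPM in KO2, WT1 and WT3 and had 0 and 1 UMI in KO1 and WT2. The B cell gene Ms4a1 was at 9.11 CPM in KO2 and under 1 CPM in the other 4 mice, and it was at 0 in KO1. Of the erythroid and platelet genes, Pf4 was at 0 in every mouse.

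Ezh2, the targeted gene (chr6:47530274-47595270 in GRCm38), stood at 50.6 CPM in KO1 and 54.7 CPM in KO2, and at 73.2, 174 and 159 CPM in WT1, WT2 and WT3. These and all later levels are CPM scaled by TMM (trimmed mean of M-values, which matches the bulk of genes between mice). Both KO mice lay below all WT mice, and WT1 lay nearer to the KO mice than to the other WT mice. The log2 fold change, KO over WT, was -1.36 ± 0.39 (SE), and Ezh2 did not pass the edgeR quasi-likelihood test (adjusted p = 0.162, Benjamini-Hochberg over all genes). An exact two-sided permutation test over mice gave p = 0.2, where 0.1 is the smallest p that 2 against 3 mice allow. Without WT1 the log2 fold change was -1.67 and the edgeR adjusted p 0.00034, and by DESeq2 on all 5 mice the adjusted p was 0.00636. Which exons are floxed, and whether 5′ reads fall in them, is not given in the sources used here, so this level says little on whether the allele was deleted.

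Ezh2 transcripts were also seen in fewer cells of the KO mice. At least 1 Ezh2 UMI was found in 13.3% of KO1 cells (95% Wilson interval 11.5 to 15.3) and 14.8% of KO2 cells (13 to 16.7). The WT shares were 19.4% (17.9 to 21.1), 36.1% (33.1 to 39.3) and 31.9% (30.0 to 33.9). When each cell was thinned to 1500 UMIs, the shares were 6.28% and 6.78% in the KO mice and 9.08%, 18.4% and 16.3% in the WT mice. Intervals of this kind cover counting error only. A reference population, 11 kept cells with at least 2 UMIs of B cell surface genes such as Cd79a, Cd79b and Ms4a1 and no Cd3d, Cd3e or Cd3g UMI, held Ezh2 in 1 cell, but B cells can express Ezh2 and 11 cells set no useful background.

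None of the other 10 measured PRC2 genes passed the test. Over all 11 the median log2 fold change was -0.17, where the median over all tested genes was -0.01. Both KO mice lay below all WT mice for 5 of the 11, Ezh2 among them (45.5%, against 19.4% over all genes). They lay above for 1 (9.09%, against 20.2%). Mtf2, an accessory subunit that recruits PRC2 to CpG-rich DNA, stood at 42.3 and 39.8 CPM in KO mice and 63.9, 54.4 and 50.2 CPM in WT mice. Rbbp7, a histone-binding subunit, stood at 136 and 135 CPM against 156, 173 and 162 CPM. For both, all WT mice lay above the KO mice by a small margin. Suz12, a core subunit, stood at 81.0 and 74.7 CPM against 85.3, 109 and 98.9 CPM. Ezh1, the other catalytic subunit, had a log2 fold change of -0.01 and overlapped between genotypes.

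**Figure D1:**
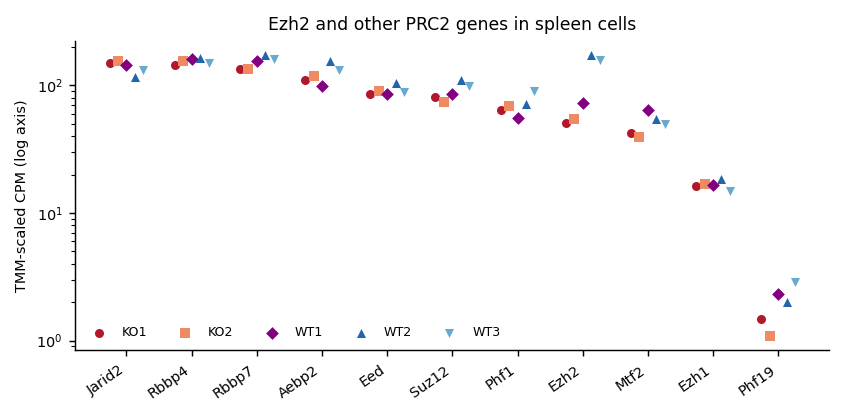
Levels of Ezh2 and 10 other PRC2 genes (vertical axis, TMM-scaled CPM, log axis) in the summed spleen cells of each mouse, 1 point per mouse. Ezh2 lies lower in KO1 and KO2 (50.6 and 54.7 CPM) than in WT1, WT2 and WT3 (73.2, 174 and 159 CPM), and the other subunits lie close together.

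The genome-wide comparison asked which genes differ between KO and WT spleen cells when each mouse is 1 sample. Of 11546 genes tested, 41 were called (0.355% of all tested), of which 31 rose in KO mice (0.268%) and 10 fell (0.0866%), by edgeR at an adjusted p under 0.05. All 41 separated the genotypes without overlap. Over all tested genes both KO mice lay above all WT mice for 20.2% of genes and below them for 19.4%, so separation alone is common here. All counts of separated list members below are to be read beside these shares. Adjusted p-values of the 41 lay between 0.0202 and 0.0494. A sum over a mouse's cells cannot tell fewer cells of a type from less RNA per cell.

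The calls depended on which mice entered. Without WT1, 2432 of 11220 genes were called (21.7%), with all 41 among them. Of these 1280 were higher and 1152 lower in KO mice. The list counts without WT1 given below come from this fit alone and are to be read beside these totals. Without KO1, KO2, WT2 or WT3 the edgeR test called 0 genes, with 890, 1170, 1573 and 1511 genes at an unadjusted p under 0.05.

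Genes of naive and recirculating T cells were prominent among those that rose. Igfbp4, whose product binds insulin-like growth factors and which marks naive CD4+ T cells (chr11:99040005-99052655), stood at 1566 and 859 CPM in KO1 and KO2 and at 43.4, 29.4 and 17.7 CPM in WT1, WT2 and WT3. The lowest KO level was far above the highest WT level, and the log2 fold change of 5.32 ± 0.46 (SE) was the largest of the 31. Lef1, which encodes a partner of beta-catenin that maintains the naive state (chr3:131110297-131224357), stood at 647 and 571 CPM in KO mice and 140, 101 and 108 CPM in WT mice (log2 fold change 2.39 ± 0.17, SE). Ly6c1, a surface antigen of recirculating T cells, stood at 92.5 and 90.0 CPM against 3.69, 8.31 and 5.54 CPM, a log2 fold change of 4.03 ± 0.30 (SE). Its near-identical neighbour Ly6c2 overlapped between genotypes (log2 fold change -0.41), and reads shared by the pair may have been split between them. Lef1os1, an RNA named as antisense to Lef1, rose with it (log2 fold change 2.28), and the strand setting of the counting is not given, so reads of the pair cannot be fully told apart.

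The list of naive and recirculation genes had 20 members, all tested. Igfbp4, Lef1 and Ly6c1 rose, the other 17 did not pass, and both KO mice lay above all WT mice for 17 of 20. The median log2 fold change of the list was 1.89. Among members that did not pass, Actn1, an actin cross-linker high in naive cells, stood at 183 and 166 CPM against 29.2, 10.6 and 26.9 CPM (edgeR adjusted p = 0.0563). S1pr1, the receptor that lets T cells leave lymphoid organs, stood at 163 and 147 CPM against 49.7, 29.4 and 51.9 CPM. Without WT1, 16 of the 20 members rose.

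Genes of the cell surface, the cytoskeleton and adhesion also rose, among them Pdlim4 and Amigo2, whose changes came next in size to that of Igfbp4. Pdlim4, an actin-associated LIM domain protein (chr11:54054928-54069032), stood at 70.4 and 86.7 CPM in KO mice and at 4.27, 3.78 and 1.85 CPM in WT mice. Amigo2, a leucine-rich repeat adhesion molecule, stood at 47.0 and 33.5 CPM against 2.52, 1.01 and 1.32 CPM. By the fitted values KO levels were 23.7-fold higher for Pdlim4 and 22.8-fold higher for Amigo2 (log2 fold changes of 4.57 ± 0.32 and 4.51 ± 0.36, SE). Myo10, an unconventional myosin of filopodia, stood at 25.7 and 25.6 CPM against 3.01, 1.51 and 1.71 CPM. Plaur, the urokinase receptor, stood at 28.7 and 21.2 CPM against 2.43, 3.52 and 2.11 CPM. The KO mice lay close together for Myo10 and less so for Pdlim4, Amigo2 and Plaur, and the WT mice were low in all of them. Emb, which encodes the cell adhesion protein embigin, also rose (517 and 503 CPM against 147, 205 and 207 CPM). Over the adhesion and cytoskeleton list, 4 of 23 tested members rose and Anxa2 fell, while 11 members had both KO mice below all WT mice and the median was -0.32.

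Several genes of signalling pathways rose. Wnt5b, a Wnt ligand, stood at 15.9 and 13.1 CPM in KO mice and at 1.26, 1.26 and 1.45 CPM in WT mice (log2 fold change 3.43 ± 0.27, SE). Tle1, a Groucho-type corepressor that binds LEF1 and TCF factors, stood at 8.71 and 7.38 CPM against 0.680, 0.755 and 0.659 CPM. Tle1 rested on few molecules in WT mice, 7, 3 and 5 UMIs, and the ratio of summed counts was 11.1 with an exact 95% counting interval of 6.37 to 20.8. Bambi, a pseudoreceptor that dampens TGF-beta signalling and is induced by TGF-beta and Wnt, stood at 56.3 and 42.7 CPM against 4.86, 5.54 and 6.59 CPM. Frat2, which binds the kinase GSK3 in Wnt signalling, rose by a log2 fold change of 1.39. In each of these 4 genes the groups lay well apart and neither KO mouse carried the difference alone. In the TGF-beta response list Bambi was the member that passed of 13 tested, 7 had both KO mice above all WT mice, none had both below, and the median was 0.49. Smad7, an inhibitor of the pathway, stood at 243 and 214 CPM against 136, 127 and 164 CPM, and the receptor gene Tgfbr2 at 225 and 205 CPM against 113, 127 and 153 CPM. Neither passed (edgeR adjusted p = 0.105 and 0.107).

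The remaining genes among the 12 largest rises were Nme4, Tdrp and Mob3b. Nme4, a mitochondrial nucleoside diphosphate kinase, stood at 9.78 and 6.66 CPM in KO mice and at 0.291, 0.503 and 0.527 CPM in WT mice. The WT level rested on 3, 2 and 4 UMIs, and the ratio of summed counts was 18.8 with a counting interval of 9.43 to 42.5. Tdrp, a gene named for testis development, stood at 37.0 and 34.6 CPM against 3.01, 2.77 and 4.88 CPM, a log2 fold change of 3.31 ± 0.26 (SE). Mob3b, of the MOB kinase activator family, stood at 13.6 and 11.5 CPM against 1.65, 1.51 and 1.85 CPM, a log2 fold change of 2.89 ± 0.27 (SE). All 3 were low in every WT mouse.

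The other 19 genes that rose, Lef1, Lef1os1, Emb and Frat2 among them, had log2 fold changes from 1.02 to 2.82. Among transcriptional and chromatin regulators, Maff, a small MAF factor of the immediate early class, stood at 140 and 88.9 CPM against 23.2, 16.1 and 15.3 CPM. Sfmbt2, a Polycomb group protein with MBT repeats, stood at 20.8 and 16.4 CPM against 3.98, 3.78 and 2.50 CPM. Eya2, a transcriptional coactivator and phosphatase, stood at 18.1 and 14.2 CPM against 2.33, 3.02 and 3.56 CPM. The immediate early and AP-1 list, which signals recent stimulation or handling, had 9 of 21 members with both KO mice above all WT mice, 2 below, and a median of 0.44. Of that list, Maff passed, and Nr4a1 stood at 797 and 509 CPM against 234, 206 and 290 CPM while its relative Nr4a2 was at 161 and 170 CPM against 401, 308 and 407 CPM.

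Single genes with roles in cell death, ubiquitin handling and interferon signalling were also among the 41. Bcl2l11, the gene of the death-promoting BIM protein and a known PRC2 target in T cells, stood at 50.0 and 39.1 CPM against 16.0, 11.3 and 14.2 CPM. Tnfrsf12a, the receptor of the cytokine TWEAK, had a log2 fold change of 2.11. Usp18, which removes ISG15 from proteins and dampens interferon receptor signalling, stood at 28.7 and 27.4 CPM against 8.45, 7.55 and 6.72 CPM. Usp18 was the called member of 15 tested type I interferon genes, whose median was 0.08. Bcl2l11 was the called member of 17 tested Bcl2 family and death receptor genes, whose median was -0.14. The ubiquitin ligases Trim13 (2.82) and Rnf103 (1.09) and the ESCRT-I subunit Vps37b (1.69) had the log2 fold changes shown. Rrad, a small GTPase, stood at 242 and 199 CPM against 40.3, 43.5 and 52.3 CPM. The log2 fold changes of the last genes were 2.80 for Gpr146, an orphan receptor, 1.34 for Fchsd2, an F-BAR protein of endocytosis, 1.17 for Slc25a25, a mitochondrial carrier, 1.02 for Gramd1a, a sterol transfer protein, and 1.93 for the long noncoding RNA A930005H10Rik.

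The genes that fell included regulators and products of cytotoxic effector cells. Eomes, the T-box factor of cytotoxic and Tr1-like CD4+ cells (chr9:118478186-118486132), stood at 49.7 and 63.3 CPM in KO mice and at 242, 361 and 383 CPM in WT mice. Prf1, which encodes the pore-forming protein perforin (chr10:61297751-61304684), stood at 21.3 and 22.1 CPM against 78.3, 125 and 103 CPM. WT1 was the lowest WT mouse for both, and still well above the KO mice. The log2 fold changes were -2.54 ± 0.26 (SE) for Eomes and -2.23 ± 0.23 (SE) for Prf1. Of 17 tested cytotoxic effector genes Prf1 was the member that passed, 12 had both KO mice below all WT mice, none had both above, and the median was -2.23. Ccl3, an inflammatory chemokine, stood at 30.2 and 43.6 CPM against 242, 660 and 643 CPM and did not pass (edgeR adjusted p = 0.0579). Cst7, an inhibitor of granule proteases, stood at 135 and 189 CPM against 389, 551 and 457 CPM and did not pass. The effector list was spread among the WT mice, with a summed level of 7946 CPM in WT1 and 36515 and 26802 CPM in WT2 and WT3, beside 1947 and 2443 CPM in KO mice. Without WT1, 12 of 16 tested members fell.

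Anxa2, a calcium- and lipid-binding annexin of activated cells, stood at 113 and 127 CPM in KO mice and at 325, 413 and 334 CPM in WT mice (log2 fold change -1.57 ± 0.15, SE). Baz1a, a subunit of the ACF and CHRAC chromatin remodelling complexes, stood at 104 and 101 CPM against 186, 184 and 192 CPM. Its change was the smallest of the 41 (-0.87 ± 0.099, SE), with very little spread within either group. Tmem163, a zinc transporter of vesicles, stood at 7.01 and 6.48 CPM against 36.9, 35.2 and 26.0 CPM (log2 fold change -2.27). Car5b, a mitochondrial carbonic anhydrase, stood at 5.95 and 6.84 CPM against 30.8, 36.2 and 37.2 CPM (-2.43). Scd2, a stearoyl-CoA desaturase, stood at 11.9 and 9.54 CPM against 31.8, 34.0 and 36.0 CPM (-1.66), and reads shared with close desaturase copies may be uncertain. Scd2 was the called member of 19 tested lipid and cholesterol synthesis genes, whose median was -0.01. Ret, a receptor tyrosine kinase, stood at 2.13 and 1.80 CPM against 13.3, 9.31 and 12.3 CPM (-2.57).

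The long noncoding RNAs Gm15987 and 1700029J03Rik also fell. Gm15987 stood at 21.9 and 17.8 CPM in KO mice and at 53.9, 48.1 and 46.3 CPM in WT mice (log2 fold change -1.32). 1700029J03Rik was at 2 UMIs in each KO mouse, or 0.425 and 0.360 CPM, against 4.95, 4.78 and 5.80 CPM in WT mice. The ratio of its summed counts, WT over KO, was 14.0 with an exact 95% counting interval of 5.32 to 52.3.

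**Figure D2:**
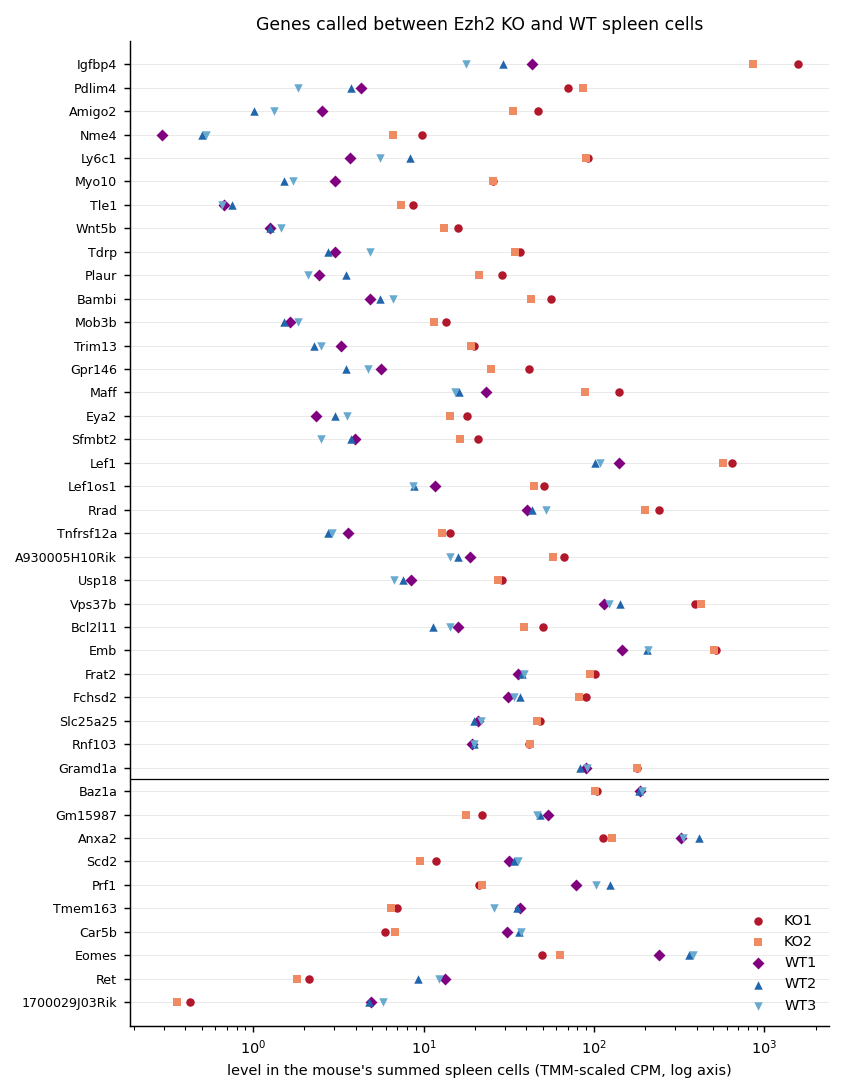
Level of each of the 41 called genes (horizontal axis, TMM-scaled CPM, log axis) in the summed spleen cells of the 5 mice, 1 point per mouse, with the 31 genes that rose in KO mice above the line and the 10 that fell below it. KO points and WT points lie apart in every row, widest for Igfbp4 and narrowest for Baz1a.

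Transcription factors and receptors of effector T cells beyond Eomes did not pass. In the effector transcription factor list 7 of 14 members had both KO mice below all WT mice and the median was -0.62. Prdm1, which encodes BLIMP1, stood at 26.8 and 29.2 CPM in KO mice and at 58.7, 104 and 95.8 CPM in WT mice (edgeR adjusted p = 0.076). Irf4, a factor of activated T cells, stood at 41.9 and 48.8 CPM against 68.7, 78.0 and 74.1 CPM. In the Th1 list none of 9 members passed and the median was -0.68. Both KO mice lay below for 4 (44.4%, against 19.4% over all genes) and above for 2 (22.2%, against 20.2%). Ifng, the signature cytokine of Th1 cells, stood at 100 and 113 CPM against 245, 712 and 848 CPM. Among inhibitory receptors the KO mice lay lower for 4 (33.3%) and higher for 2 (16.7%) of 12 members, with no call. Over all genes these shares were 19.4% and 20.2%, so the higher members are no more common than in the background. Cd160 stood at 15.7 and 15.3 CPM against 5.34, 4.78 and 4.35 CPM. Entpd1, the ectoenzyme CD39, stood at 24.0 and 20.2 CPM against 50.0, 107 and 91.4 CPM, and Havcr2 (TIM-3) at 7.23 and 11.5 CPM against 33.0, 92.4 and 95.7 CPM. Cxcr5, the follicular homing receptor, stood at 20.4 and 31.0 CPM against 64.4, 80.0 and 109 CPM, and Sh2d1a, the signalling adaptor SAP, at 110 and 146 CPM against 254, 461 and 511 CPM. Of the 15 follicular helper genes 11 overlapped and none passed.

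Cell cycle genes lay lower in KO mice almost throughout. Of 20 members 19 had both KO mice below all WT mice, none was called, and the median was -1.20. Top2a, the topoisomerase of dividing cells, stood at 47.0 and 45.0 CPM in KO mice and at 95.1, 147 and 108 CPM in WT mice (edgeR adjusted p = 0.0678). Mcm6, of the replicative helicase, stood at 83.7 and 99.5 CPM against 151, 179 and 151 CPM. Cells with a UMI of Mki67 or Top2a made up 7.59% and 8.77% of KO cells and 17.1%, 26.1% and 19.3% of WT cells. Without WT1, 17 of the 20 members fell.

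Of 8 tested Th17 genes 5 had both KO mice above all WT mice, 3 overlapped, none passed, and the median was 1.65. Without WT1, 7 of the 8 rose. Ramp1, a receptor subunit for the neuropeptide CGRP, stood at 86.9 and 90.5 CPM against 22.5, 8.05 and 10.2 CPM. Il23r, the IL-23 receptor gene, stood at 8.71 and 3.24 CPM against 0.291, 0.503 and 0 CPM. Regulatory T genes overlapped between genotypes for 13 of 15 members, and none passed. Foxp3 stood at 95.2 and 138 CPM in KO mice and at 121, 2.77 and 28.6 CPM in WT mice. Gpr83, a receptor of regulatory T cells, stood at 19.3 and 17.3 CPM against 6.99, 0 and 1.45 CPM. Without WT1, 10 of the 15 regulatory T members rose, where 1280 of all 11220 genes did. WT1 held the largest share of Foxp3-positive cells of the WT mice (17.9%). This count therefore depends on which WT mice are kept and cannot be read as a genotype difference.

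Of 17 tested genes known as PRC2 targets, Bambi and Bcl2l11 rose and Eomes fell. Both KO mice lay above all WT mice for 6 of them and below for 9, and the median was -0.77. Without WT1, 6 rose and 8 fell. Runx2, a Runt family factor, stood at 70.4 and 84.0 CPM in KO mice and at 161, 143 and 168 CPM in WT mice and did not pass.

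T cell identity genes, such as Cd3g at 778 and 848 CPM against 1075, 1247 and 1290 CPM, had a median of -0.33, with no call and 9 of 16 below in both KO mice. Without WT1, 10 of these 16 fell. Transcripts of other cells were present and did not all follow the genotype. B and plasma cell genes (11 of 14 tested) summed to 689 and 1322 CPM in KO mice and 1259, 583 and 599 CPM in WT mice. Of these 2 lay above and 1 below in both KO mice, or 18.2% and 9.09% against 20.2% and 19.4% over all genes. The lower one was Igkc, at 114 and 184 CPM against 388, 359 and 314 CPM. Myeloid and dendritic genes (6 of 13 tested) summed to 128 and 245 CPM against 566, 148 and 412 CPM, with Cd68 and Lyz2 below in both KO mice. Gamma-delta and NK genes (2 of 10 tested) both overlapped. Their part in the 41 calls was not tested beyond leaving out cells: without cells holding a B cell or myeloid UMI all 41 were still called, among 305 genes. That filter cut unevenly. It left out 23.7% and 35.8% of KO1 and KO2 cells and 24.2%, 4.09% and 5.46% of WT1, WT2 and WT3 cells.

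**Figure D3:**
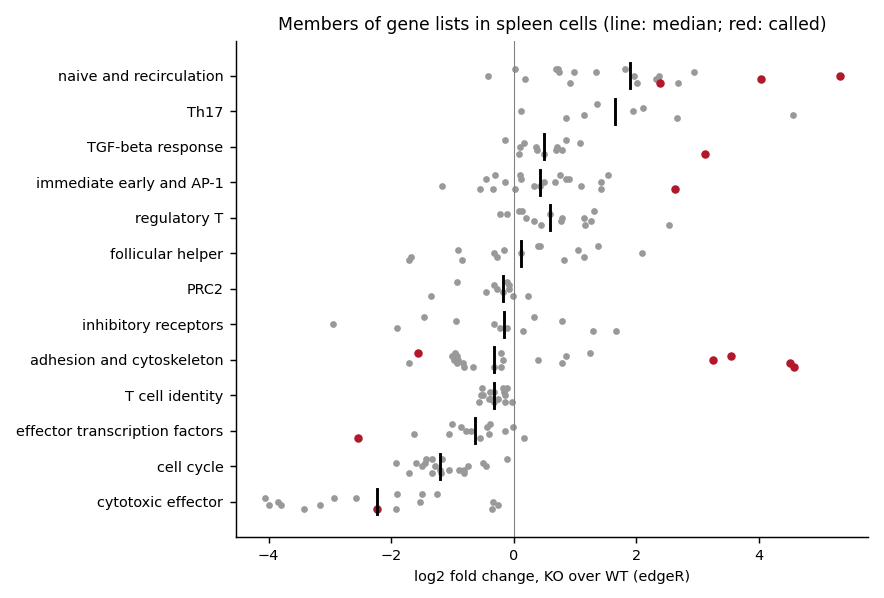
Log2 fold change, KO over WT, of the tested members of 13 gene lists in spleen cells, 1 point per gene, with the list median as a line and called genes in red. The naive and recirculation list has the highest median (1.89) and the cytotoxic effector list the lowest (-2.23), and most members of every list were not called.

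The per-cell data show how the naive genes were distributed. Cells were scored for 8 naive markers, Ccr7, Lef1, Igfbp4, Actn1, Dapl1, S1pr1 and Satb1 among them, and a cell with UMIs of at least 3 was counted as marker-rich. Marker-rich cells made up 57.2% of KO1 cells (95% Wilson interval 54.4 to 59.9) and 46.7% of KO2 cells (44.1 to 49.3). In WT1, WT2 and WT3 they made up 13.6% (12.3 to 15.1), 7.18% (5.67 to 9.05) and 7.08% (6.06 to 8.25). The KO mean was 51.9% ± 7.40 (SD, n = 2) and the WT mean 9.29% ± 3.75 (SD, n = 3), and the exact two-sided permutation p was 0.1, the smallest the design allows. Since Igfbp4 and Lef1 are among the 8 markers, the share and the 2 called genes are not independent.

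The class is a range of a score and not a cell type. Just below the threshold, 155 and 182 KO cells and 429, 104 and 260 WT cells held 2 markers. Just above it, 116 and 124 KO cells and 192, 33 and 102 WT cells held 3. Thinned to 1500 UMIs per cell, which left out 316 shallower cells (54 and 50 in KO mice, 107, 28 and 77 in WT mice), the shares were 45.0% and 35.3% against 3.84%, 2.51% and 1.38%. Marker-rich WT cells carried other transcripts: their median cell held 9, 16 and 15 UMIs of cytotoxic effector genes in WT1, WT2 and WT3, against 1 in each KO mouse. Median depth of marker-rich cells was 3827 and 4008 UMIs in KO mice and 5089, 4666 and 5018 UMIs in WT mice, so WT cells reached 3 markers at greater depth.

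**Figure D4:**
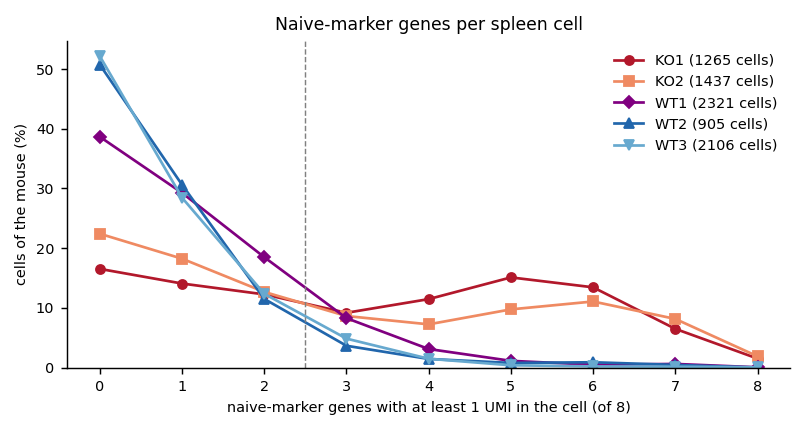
Share of each mouse's spleen cells (vertical axis, percent) by the number of 8 naive-marker genes with at least 1 UMI (horizontal axis), 1 line per mouse, with the threshold of 3 as a dashed line. WT lines fall from 0 to 5 markers, while the KO lines have a second peak, at 5 markers in KO1 and at 6 in KO2.

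The called genes of highest level differed in how many cells held them and in how much each held. Igfbp4 was found in 48.2% and 33.7% of KO cells and in 2.33%, 2.87% and 1.47% of WT cells, and a cell with Igfbp4 held on average 12.1 and 9.86 UMIs in KO mice against 8.28, 4.50 and 4.32 UMIs in WT mice. None of the 11 B-transcript cells held an Igfbp4 UMI, too few cells to set a background. Lef1 was found in 64.3% and 60.8% of KO cells and 30.4%, 23.8% and 24.8% of WT cells, and Emb in 64.6% and 63.7% against 30.5%, 41.5% and 38.9%. Among genes that fell, Eomes was found in 7.27% and 10.4% of KO cells and 34.7%, 65.7% and 61.7% of WT cells. Anxa2 was found in 23.2% and 25.2% against 47.8%, 55.1% and 51.0%, and Baz1a in 26.9% and 28.9% against 45.2%, 45.7% and 42.9%. After thinning to 1500 UMIs per cell the KO shares of these 6 genes still lay all above or all below the WT shares, for example 44.3% and 29.7% against 1.81%, 2.05% and 1.03% for Igfbp4 and 3.55% and 5.77% against 22.8%, 39.8% and 40.7% for Eomes.

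The comparison was repeated within cells that held at most 1 of the 8 naive markers (387 and 584 KO cells, 1576, 736 and 1697 WT cells). There 0 of 10565 genes were called (0%), with 1095 at an unadjusted p under 0.05 and a smallest edgeR adjusted p of 0.236. Of the 41 genes 33 could be tested, and all 33 kept their direction. The genes that could not be tested had all risen, and Igfbp4, the largest rise, was among them. Of the 23 that had risen, 22 had both KO mice above all WT mice, and Vps37b overlapped. All 10 that had fallen had both KO mice below all WT mice. Over all genes tested in these cells, 16.2% lay above and 16.4% below in the same way. The sizes were smaller, with a median log2 fold change of 1.22 in place of 2.28 for the 23 genes and -1.80 in place of -2.25 for the 10. These cells are part of the cells in the first comparison, so this is a description of the same mice and not a second test. Marker-low cells also differed in make-up between mice and are not matched populations. Their median cell held 4 UMIs of cytotoxic effector genes in each KO mouse, against 7.5, 142 and 66 in WT1, WT2 and WT3. For regulatory T genes it held 8 and 11 UMIs in KO1 and KO2, against 6, 3 and 3.

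Single genes differed in how much of their change was seen in marker-low cells. Lef1 stood at 74.8 and 79.6 CPM against 50.8, 37.3 and 56.9 CPM there, a log2 fold change of 0.67 in place of 2.39, and Lef1 is itself one of the markers. Usp18 kept its size (1.88 in both). Emb stood at 308 and 316 CPM against 159, 199 and 187 CPM, a log2 fold change of 0.78. Eomes stood at 64.3 and 98.3 CPM against 213, 400 and 426 CPM (-2.08), and Prf1 at 33.9 and 33.9 CPM against 95.7, 139 and 127 CPM (-1.83). Igfbp4, Pdlim4, Amigo2, Nme4, Wnt5b, Plaur, Mob3b and Trim13 had too few counts for a test in these cells. By library total, both KO mice lay above all WT mice there for 27 of the 31 genes that rose. Those that overlapped were Igfbp4, Nme4, Plaur and Trim13. Igfbp4, itself one of the markers, stood at 14.6 and 0.527 CPM in KO mice and at 1.29, 1.41 and 2.28 CPM in WT mice.

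Levels in marker-rich cells, a class that Lef1 and Igfbp4 help to define and that held 65 cells in WT2, were not tested. By library total, both KO mice lay above all WT mice for 30 of the 31 genes that rose (12.2% of all genes) and below for 9 of the 10 that fell (26.5% of all genes). Pdlim4 stood at 107 and 160 CPM in marker-rich KO cells and at 18.8, 28.4 and 12.2 CPM in marker-rich WT cells. Anxa2 stood at 46.5 and 71.1 CPM against 422, 501 and 452 CPM, and Ezh2 at 36.7 and 47.7 CPM against 101, 190 and 204 CPM. Ezh2 in marker-low cells, by library total, was at 67.3 and 61.1 CPM in KO mice and at 62.3, 154 and 137 CPM in WT mice, where WT1 lay between the KO mice.

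**Figure D5:**
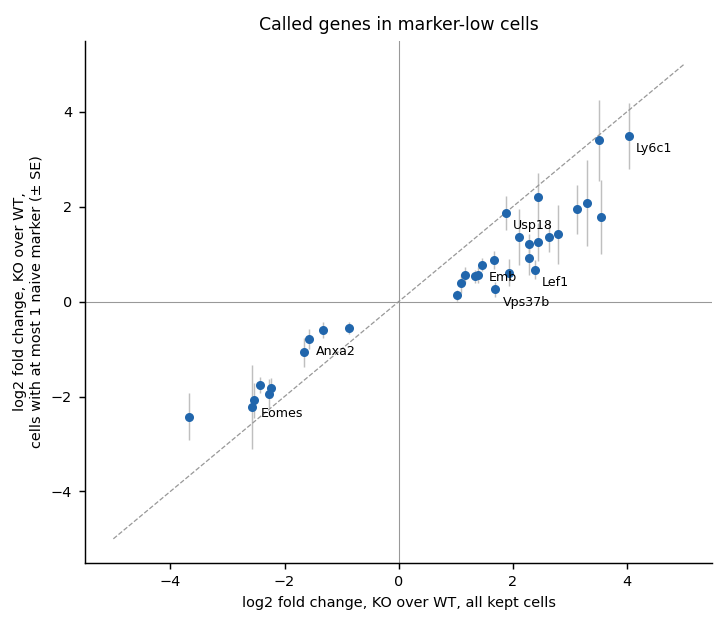
Log2 fold change, KO over WT, of 33 called genes in cells with at most 1 naive marker (vertical axis, bars are SE) against that in all kept cells (horizontal axis), with a dashed line of equal size. All 33 points keep their sign, and most lie nearer to 0 than the line.

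Kidney cells of the same 5 mice, treated the same way (634 and 184 KO cells, 1559, 1418 and 924 WT cells), served to compare the organs. In kidney alone edgeR called 0 of 10351 genes (0%), with 1240 at an unadjusted p under 0.05. Of the 41 spleen genes 39 were tested there and 38 had the same direction. Both KO mice lay above all WT mice in kidney for 28 of the 30 tested genes that had risen in spleen, and below for 5 of the 9 that had fallen, where 16.9% and 16.8% of all kidney genes did so. Lef1 stood at 267 and 377 CPM in kidney KO cells and at 94.8, 78.1 and 69.9 CPM in kidney WT cells. Eya2, at 5.80 and 7.48 CPM against 5.56, 6.97 and 6.07 CPM, was one of the genes that overlapped in kidney.

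A test of the organ difference itself, an organ-by-genotype term with the mouse as a block, called 12 of 12031 genes (0.0997%). Anxa2 was the one of the 41 among them (edgeR adjusted p = 0.0491). Scaled within each organ's own fit, Anxa2 was at 113 and 127 CPM against 325, 413 and 334 CPM in spleen. In kidney, where the genotypes overlapped, it was at 271 and 447 CPM against 319, 452 and 427 CPM. For the 40 that were not called, the changes in the organs are not shown to be equal.

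Promoters were inspected for the members that moved together. RefSeq windows of GRCm38.p6 (250 bases before to 50 after the start, the most upstream start that the table lists for a gene, which can lie inside the annotated gene, as for Igfbp4) were found for 24 of the 31 genes that rose and 7 of the 10 that fell. The median number of CG dinucleotides was 19.5 in the former and 10 in the latter, against 21 over 8908 tested genes with a window. The 250 bases before the start are shown for Igfbp4 and Eomes, the largest rise and the largest fall of a transcription factor, because PRC2 is known to occupy CpG-rich promoters. Both lie on the forward strand, 5′ to 3′, with each CG in capitals, at chr11:99040994-99041243 for Igfbp4 and at chr9:118477939-118478188 for Eomes.
Igfbp4: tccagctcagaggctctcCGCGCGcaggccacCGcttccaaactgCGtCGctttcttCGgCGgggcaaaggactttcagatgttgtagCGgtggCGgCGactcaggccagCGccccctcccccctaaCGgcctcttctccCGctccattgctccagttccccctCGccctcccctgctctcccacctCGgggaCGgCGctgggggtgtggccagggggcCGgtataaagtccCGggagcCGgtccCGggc
Eomes: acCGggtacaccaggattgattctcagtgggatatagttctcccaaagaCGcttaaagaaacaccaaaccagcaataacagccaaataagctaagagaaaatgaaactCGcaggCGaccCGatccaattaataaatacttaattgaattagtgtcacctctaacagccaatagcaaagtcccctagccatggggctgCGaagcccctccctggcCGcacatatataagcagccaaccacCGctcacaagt
The Igfbp4 stretch held 22 CG dinucleotides and the Eomes stretch 8. The letters TCAAAG, the core bound by TCF and LEF factors, were found on either strand in 3 of the 24 windows (12.5%), in 1 of the 7 (14.3%) and in 12% of all tested genes with a window. The T-box core GGTGTGA was in none of the called genes' windows and in 3.23% of the same background. These matches describe letters in short windows only.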

How the data were processed

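CD4+ T cells of spleen and kidney were read as single-cell 5′ gene expression with hashtag antibodies. The authors deposited 1 matrix per organ of raw UMI counts, with 32285 gene rows and 10 tag rows and no normalization. Tools named in the submitters' processing notes are Cell Ranger 7.1.0 and Seurat 5.0.1, with mm10 (GRCm38) as build, and the sources used here give no strand or cell-calling setting. Barcode suffixes split the spleen matrix into 5 first-day blocks, used here, and 4 second-day blocks, which held 9596 entries over 2399 distinct barcodes and were left out. Matrix tags carry numbers and the key carries sequences, so the key's order gave each tag its number. Genotype came from each first-day block's leading hashtag and the deposited key. No cells were removed here as doublets, either by tag or by a doublet caller. Leaving out cells led by another tag, an unplanned alternative, again gave 41 called genes.

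Counts of cells without Cd8a and Cd8b1 UMIs were summed per mouse, then fitted in edgeR 4.0.16 under R 4.3.3 (quasi-likelihood, TMM, filterByExpr, Benjamini-Hochberg, threshold 0.05). Levels are CPM from these sums. Shares have Wilson intervals at 95% and exact permutation tests over mice (scipy 1.17.1). The floor for a count of 0 is 3 counts. Alternatives were DESeq2 1.42.0, limma-voom (limma 3.58.1), RLE factors, no filter, other cell filters, thinning, and leaving out each mouse. The members and the 27 gene lists were chosen with earlier results of these data known, and no set test was run. Of the called genes, the 12 largest rises, every fall and Ezh2 have full values; list examples are the members of smallest p, and Ly6c2, Foxp3, Ezh1 and Rrad were singled out after their values were seen. Some genes are not reported here. Of 41 called genes 40 matched RefSeq by symbol. The fits were also run on simulated counts, drawn with the same spread for every mouse. Such counts hold no mouse set apart like WT1, so they cannot speak to the dependence of the calls on WT1. The comparison rests on 2 KO mice and 3 WT mice, which limits its precision.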

Additional observations from a re-analysis of the deposited data

Results flagged for a closer look

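The organ-by-genotype term, tested with the mouse as a block, called 12 genes, each with a KO effect in spleen that differed from that in kidney, and 10 are given here. Values are the spleen effect minus the kidney effect on the log2 scale, by edgeR. The CPM levels of these genes given here were scaled by TMM over both organs together, unlike the levels above. The differences were -1.38 for Fasl, -1.55 for Zeb2, -1.41 for Perp and -1.35 for Anxa2, so KO levels of these genes lay relatively lower in spleen than in kidney. Fasl, which encodes the Fas ligand, stood at 46.7 and 54.1 CPM in spleen KO cells and at 127, 222 and 217 CPM in spleen WT cells, against 245 and 239 CPM and 278, 364 and 385 CPM in kidney. Zeb2, a transcription factor of terminal effector cells, overlapped in spleen (21.1 and 21.5 CPM against 42.2, 26.8 and 14.9 CPM), while both kidney KO mice (90.5 and 81.4 CPM) lay above all kidney WT mice (50.8, 40.0 and 23.5 CPM). Dsp, which encodes desmoplakin of epithelial junctions, differed by -3.67, with 34.6 CPM in WT1 spleen and 4.26 to 6.24 CPM in the other spleen samples, while both kidney KO mice (14.5 and 16.9 CPM) lay above all kidney WT mice (7.25, 1.06 and 0.915 CPM).

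The other 5 genes given here are genes of neutrophils or kidney tubules. The neutrophil genes S100a8 (-9.99) and S100a9 (-12.1) were present in KO2, WT1 and WT3 spleen and in KO2 kidney and at or near 0 in the other samples. The kidney tubule genes Pck1 (7.36), Fbp1 (7.78) and Gatm (7.88) were highest in WT3 kidney, at 43.6, 71.0 and 48.5 CPM, and in spleen were present mainly in KO1, at 4.43, 20.1 and 35.8 CPM. Where samples are at 0, such fitted values depend on the prior count and are not bounds. The cause of these transcripts was not tested.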

How the results depend on the processing

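In place of 41, the number of called spleen genes was 746 by DESeq2, 345 with no filter on low counts, 127 in cells with a Cd4 UMI, 374 without Foxp3 cells, 123 without Mki67 and Top2a cells, 305 without B cell and myeloid UMIs, and 0 in cells with at most 1 naive marker (1639 there without WT1, an alternative chosen after seeing the data). The 41 were all among the DESeq2, unfiltered, Foxp3-negative and B- and myeloid-free calls, and 39 among those of the Cd4 and non-dividing cells. It ranged from 0 to 2432 when each mouse was left out in turn, where a lone mouse of a genotype is assumed to vary like the other mice. The log2 fold change of Ezh2 was -1.38 by DESeq2, -1.67 to -1.15 without 1 mouse, -0.99 in cells with at most 1 naive marker (adjusted p = 0.491 by edgeR), and -1.30 in those cells without WT1. The organ term called 0 genes without the mouse block (449 at an unadjusted p under 0.05), 290 with no filter, and 0 to 157 without 1 mouse. The naive-marker share differed by 37.4 to 47.9 percentage points over its alternatives, beside 42.6. Voom called 52 genes, 36 shared, RLE factors 41, and keeping CD8-transcript cells 29. None of the 22 genes with full values changed direction in these alternatives where it could be tested. The cause of these shifts in the number of calls was not tested. Depth limits genes under about 5 CPM, such as Nme4, Tle1 and 1700029J03Rik, whose low groups rest on 2 to 7 UMIs per mouse.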

Other observations

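Gene groups outside the comparisons above had few or no calls. PRC1 and H3K27 demethylase genes had a median log2 fold change of 0.16 over 21 members with no call. Both KO mice lay above all WT mice for 8 (38.1%, against 20.2% over all genes) and below for 1 (4.76%, against 19.4%). Pcgf5, a PRC1 subunit, stood at 69.5 and 66.9 CPM in KO mice and at 45.2, 44.8 and 49.4 CPM in WT mice (edgeR adjusted p = 0.0993). Glycolysis and hypoxia genes had a median of -0.20 over 15 members with no call, and Gapdh stood at 221 and 210 CPM against 291, 338 and 313 CPM. Tissue chemokine receptors had a median of -0.12 over 12 members with no call, and WT1 lay apart in several of them, with Ccr2 at 21.1 CPM in WT1, 308 and 277 CPM in WT2 and WT3 and 14.5 and 13.7 CPM in KO mice. Genes of lpr double-negative T cells (7 of 8 tested) had a median of 0.16 with no call and 6 overlapping. Bcl2 family and death receptor genes had a median of -0.14 over 17 members, of which Bcl2l11 rose.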
